A study of Mus musculus with 8 samples.

Results

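The genes described here are 45 genes of DNA damage signalling and repair, chosen by name and compared between Sox2-positive and Sox2-negative medulloblastoma cells of the mouse. Of these 45 genes, 40 were measured by a probe set that names 1 gene, out of 22180 genes tested. Rad54b and Fanca shared their probe sets with another gene, and Xrcc2, Rbbp8 and Dclre1c were not analysed here. H2afx, the histone variant H2A.X, is given under its current symbol H2ax. No member was left out for a low value.

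Medulloblastoma is a tumour of the cerebellum, and mice with 1 functional copy of Patched1, the Hedgehog receptor, develop the Hedgehog-driven form. Both fractions came from mice that carried Patched1+/- and Sox2eGFP, labelled as having CD1 and B6 parents, so that cells expressing the stem cell factor Sox2 carry a green reporter. All animals were given 3 Gy of ionizing radiation at birth and were older than 70 days, and tumours were taken once they showed signs of one. The comparison therefore holds no unirradiated group, and cells were taken long after the exposure. CD45+ and Ter119+ cells were removed before sorting for eGFP. Each of the 8 arrays measured the pooled RNA of 3 tumours, with 4 pools of Sox2-eGFP+ cells and 4 of Sox2-eGFP- cells. A p-value here measures the spread between pools, and the labels do not say whether both fractions of a pool number came from the same animals. Values are log2 signals, so a difference of 1 is a doubling.

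As background, cells mend DNA by routes that depend on the lesion. A double-strand break is sensed by the Mre11a-Rad50-Nbn complex, which activates the kinase Atm. Atm marks the nearby chromatin by phosphorylating H2A.X, and the kinase Atr does the same kind of work at stalled replication forks. Breaks are then joined end to end at any time of the cell cycle, or copied from the sister chromatid by homologous recombination, which is used after replication. In Hedgehog medulloblastoma these genes are of interest because granule neuron progenitors divide rapidly and because loss of some repair genes has been linked to medulloblastoma in mice. Many repair genes are transcribed with the replication genes under E2F factors, and so follow how many cells of a sample are dividing.

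The 2 fractions differed little in these genes. Of the 40 genes, 1 passed the test, Bard1, which was lower in Sox2-positive cells, and 0 were higher (limma, adjusted over all 22180 genes). Over all genes tested, 8.47% passed, 5.96% higher and 2.52% lower, so 1 gene of 40 is no more than the background gives. At an unadjusted p under 0.05 there were 6 members, 6 lower and 0 higher, against 20.1% of all genes, 9.69% lower and 10.4% higher. The median log2 difference of the members was -0.10, against -0.03 over all genes. A total of 34 of the 40 lay below 0 (85%), where 58.7% of all genes did, and 31 to 33 lay below 0 when any 1 array was left out. In bulk RNA, fewer cells that use a gene and less of its RNA per cell cannot be told apart.

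The sizes were small in fold terms, though some were large beside their standard errors, such as -0.38 (SE 0.10) for Bard1. The standard errors of the members had a median of 0.10 on the log2 scale. For 39 of the 40 genes the 95% interval of the difference lay wholly within 1.5-fold in either direction, and for 18 within 1.25-fold. Of all 22180 genes tested, 19510 lay within the wider bound and 9608 within the narrower one. Narrow intervals are therefore not particular to the members. Among the members, Bard1 was the exception to the wider bound, and the lower end of its interval, -0.59, lay just past it. The next largest difference, that of Msh3, was -0.27. A missed test does not show equal levels, and each interval gives the sizes of the signal difference that these pools leave possible. RMA, the processing of the deposited values, compresses differences of dim genes. For 8 of the 40 genes both group means lay below 5.80, a guide to dim signal taken from receptor genes.

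**Figure D1:**
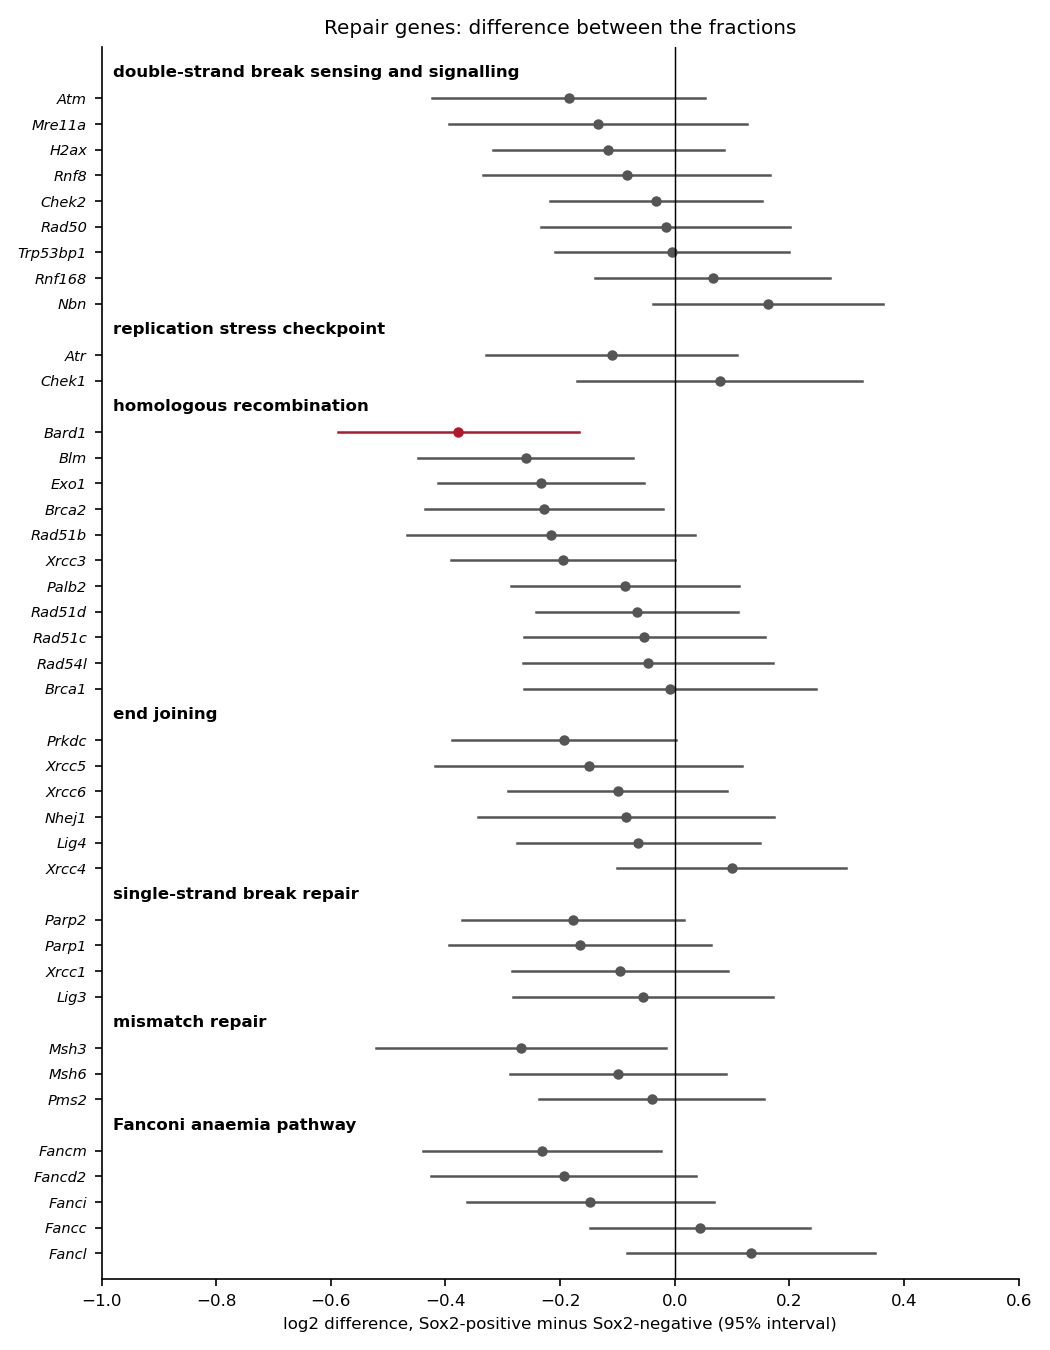
Each point is the log2 difference of 1 gene, Sox2-positive minus Sox2-negative, with its 95% interval from limma (4 pools per fraction), grouped by repair route and sorted within each. Bard1, in red at -0.38, is the gene that passed the test, and the 11 genes of homologous recombination all lie below 0.

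Promoter sequences are shown for the members whose 2 fractions did not overlap and for the other repair genes that passed the test, where a window was at hand. They are RefSeq windows of GRCm38.p6, from 250 bases before to 50 bases after a transcription start, read 5′ to 3′ on the strand of the gene. Capitals mark matches on either strand to TTTGGCGC or TTTCCCGC (E2F), TTTGAA (CHR, a cell cycle element), CCAAT (NF-Y) and CATTGTT (Sox factors). The windows lie at chr1:71102923-71103222 (minus strand) for Bard1, chr7:80534949-80535248 (minus strand) for Blm and chr5:150522371-150522670 (plus strand) for Brca2. Those of the other genes lie at chr9:109875329-109875628 (plus strand) for Cdc25a, chr7:51862218-51862517 (minus strand) for Fancf and chr11:9011142-9011441 (minus strand) for Hus1.
Bard1: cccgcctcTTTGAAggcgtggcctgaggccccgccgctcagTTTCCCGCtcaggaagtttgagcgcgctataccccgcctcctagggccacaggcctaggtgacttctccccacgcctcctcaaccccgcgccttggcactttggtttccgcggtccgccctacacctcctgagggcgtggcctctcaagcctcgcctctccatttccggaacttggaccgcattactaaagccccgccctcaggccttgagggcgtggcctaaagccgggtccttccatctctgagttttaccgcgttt
Blm: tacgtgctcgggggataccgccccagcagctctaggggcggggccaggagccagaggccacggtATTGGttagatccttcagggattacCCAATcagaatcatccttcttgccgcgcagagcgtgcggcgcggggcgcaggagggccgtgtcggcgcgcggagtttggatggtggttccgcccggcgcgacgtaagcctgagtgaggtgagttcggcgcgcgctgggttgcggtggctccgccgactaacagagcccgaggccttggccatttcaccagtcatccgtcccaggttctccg
Brca2: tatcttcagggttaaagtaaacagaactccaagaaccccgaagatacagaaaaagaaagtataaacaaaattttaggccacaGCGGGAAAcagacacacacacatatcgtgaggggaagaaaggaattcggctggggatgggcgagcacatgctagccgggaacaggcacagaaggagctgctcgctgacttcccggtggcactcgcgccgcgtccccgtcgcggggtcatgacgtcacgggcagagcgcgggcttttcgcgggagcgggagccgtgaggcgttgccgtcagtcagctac
Cdc25a: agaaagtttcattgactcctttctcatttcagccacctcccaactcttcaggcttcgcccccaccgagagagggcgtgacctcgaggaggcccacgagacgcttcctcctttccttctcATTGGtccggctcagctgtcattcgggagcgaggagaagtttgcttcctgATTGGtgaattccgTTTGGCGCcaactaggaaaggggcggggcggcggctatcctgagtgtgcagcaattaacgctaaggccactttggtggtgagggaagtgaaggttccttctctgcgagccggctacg
Fancf: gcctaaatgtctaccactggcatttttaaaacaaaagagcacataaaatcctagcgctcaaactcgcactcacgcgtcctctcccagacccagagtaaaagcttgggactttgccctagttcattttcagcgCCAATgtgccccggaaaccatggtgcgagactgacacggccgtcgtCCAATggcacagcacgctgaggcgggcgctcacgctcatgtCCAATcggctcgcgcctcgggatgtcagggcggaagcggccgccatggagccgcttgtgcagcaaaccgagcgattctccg
Hus1: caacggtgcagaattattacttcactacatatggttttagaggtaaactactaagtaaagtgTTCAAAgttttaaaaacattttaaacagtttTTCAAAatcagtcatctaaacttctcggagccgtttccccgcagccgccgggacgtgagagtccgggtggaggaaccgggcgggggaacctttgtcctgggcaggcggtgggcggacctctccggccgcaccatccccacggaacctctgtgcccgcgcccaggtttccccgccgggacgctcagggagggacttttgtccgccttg

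The Bard1 window held the E2F letters TTTCCCGC 209 bases before the start and the CHR letters TTTGAA 242 bases before it. Brca2 held the reverse form of the same E2F letters 168 bases before its start. Cdc25a held TTTGGCGC at 67 bases and CCAAT in reverse at 131 and 81 bases before the start. Blm held CCAAT letters at 186 and 161 bases, in opposite orientations, and Fancf held 3 copies at 118, 72 and 31 bases. Hus1, which was higher in Sox2-positive cells, held no E2F or CCAAT letters in this window and had the reverse of TTTGAA at 188 and 157 bases before the start. None of the 6 windows held the Sox letters.

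Windows were found for 33 of the 40 members, 37 windows in all. Exo1, Fancd2, H2ax, Nbn, Prkdc, Rad50 and Rad51d had no entry. The E2F letters stood in 7 of the 37 windows (18.9%), against 1.56% of all 32851 windows. In the wider list of other repair genes they stood in 4 of 109 windows (3.67%). The 7 windows of the members were those of Bard1, Brca2, Chek2, Msh3, Msh6, Rad51c and Xrcc6. CCAAT stood in 51.4% of the members' windows and 37.4% of all, TTTGAA in 8.11% and 17.9%, and CATTGTT in 0 of 37 and 3.78% of all. The 7 genes with E2F letters had a median log2 difference of -0.10 with 7 below 0, and the 26 without had -0.09 with 21 below 0. For TTTGAA the medians were -0.22 in 3 genes with the letters and -0.09 in 30 without, and for CCAAT -0.10 in 17 and -0.07 in 16. These differences were not tested. A match is a run of letters and not a measured site.

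With all arrays, homologous recombination had the lowest median difference of the 7 routes. This route copies the lost sequence from an intact chromatid. All 11 measured genes had log2 differences below 0, with a median of -0.19, a range of -0.38 to -0.0079 and 1 call. Leaving out any 1 array kept 10 or 11 of the 11 below 0, with a median between -0.21 and -0.11. The order of the routes rests on Sox2-positive pool 4. Without it the median of this route was -0.11, above -0.18 for the Fanconi anaemia pathway, -0.15 for single-strand break repair and -0.12 for mismatch repair. With the dimmer genes left out, the 2 remaining Fanconi genes had -0.213, this route had -0.206 and no mismatch repair gene remained. In 4 of them, Bard1, Blm, Exo1 and Brca2, every Sox2-positive pool lay below every Sox2-negative pool. These were the 4 members of all 40 whose fractions did not overlap, against 13.7% of all genes, 6.07% lower and 7.63% higher. The routes were grouped with earlier results of these data known, so the counts describe the genes and are no test of the route.

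Bard1 encodes the RING partner that Brca1 needs to act as a ubiquitin ligase at breaks. Its log2 values were 6.01, 5.97, 5.79 and 6.09 in Sox2-positive pools 1 to 4 and 6.25, 6.49, 6.23 and 6.41 in Sox2-negative pools 1 to 4. The highest Sox2-positive pool lay below the lowest Sox2-negative pool. Bard1 fell by 0.38 on the log2 scale (5.97 ± 0.12 against 6.34 ± 0.13, mean ± SD, n = 4 each; SE 0.10, limma adjusted p = 0.028), which leaves 77.0% of the Sox2-negative level. The call rests on single arrays. Omitting any of 4 pools, numbers 2 and 3 of the Sox2-positive fraction and numbers 2 and 4 of the Sox2-negative one, brought the limma adjusted p to between 0.066 and 0.0918. With each of the 8 arrays omitted in turn, the difference ran from -0.42 to -0.32.

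Brca1 itself did not follow its partner. Its values were 6.46, 6.21, 6.12 and 6.54 in the Sox2-positive pools and 6.40, 6.48, 6.39 and 6.08 in the Sox2-negative pools, and the fractions overlapped throughout. The log2 difference was -0.0079 (95% interval -0.26 to 0.25, limma adjusted p = 0.984). The difference between the partners was not tested. Palb2, which bridges Brca1 to Brca2, had a log2 difference of -0.09.

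Blm is the helicase that dissolves crossed recombination intermediates. It was at 5.98, 5.94, 6.00 and 5.99 in Sox2-positive pools and at 6.15, 6.30, 6.13 and 6.38 in Sox2-negative pools. The Sox2-positive pools lay close together, below all 4 Sox2-negative pools. The log2 difference of -0.26 did not pass (SE 0.09, limma adjusted p = 0.0911).

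Exo1, an exonuclease that trims break ends for copying, was at 6.60, 6.64, 6.55 and 6.45 in Sox2-positive and 6.81, 6.83, 6.73 and 6.81 in Sox2-negative pools. The fractions were apart in every pool, and the log2 difference was -0.23 (limma adjusted p = 0.117). With quantile normalization of the deposited values this gene passed (difference -0.28, limma adjusted p = 0.0397).

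Brca2, which loads the strand exchange protein onto single-stranded DNA, was at 6.39, 6.38, 6.50 and 6.48 in Sox2-positive and 6.69, 6.88, 6.51 and 6.58 in Sox2-negative pools. The gap between the fractions was narrow, with Sox2-positive pool 3 and Sox2-negative pool 3 next to each other. Its log2 difference was -0.23 (95% interval -0.44 to -0.02, limma adjusted p = 0.198).

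Among the paralogues that assist strand exchange, Rad51b was at 7.06, 6.88, 6.87 and 6.52 in Sox2-positive and 7.18, 7.07, 6.87 and 7.08 in Sox2-negative pools. The low value of Sox2-positive pool 4 made up much of its log2 difference of -0.22, which was -0.11 without that pool (limma adjusted p = 0.335 with all pools). Xrcc3 was at 6.84, 6.67, 6.59 and 6.65 against 6.76, 6.98, 6.85 and 6.94, and only Sox2-positive pool 1 overlapped the other fraction (log2 difference -0.19, limma adjusted p = 0.252). Rad51c and Rad51d had log2 differences of -0.05 and -0.07, and the motor protein gene Rad54l had -0.05.

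**Figure D2:**
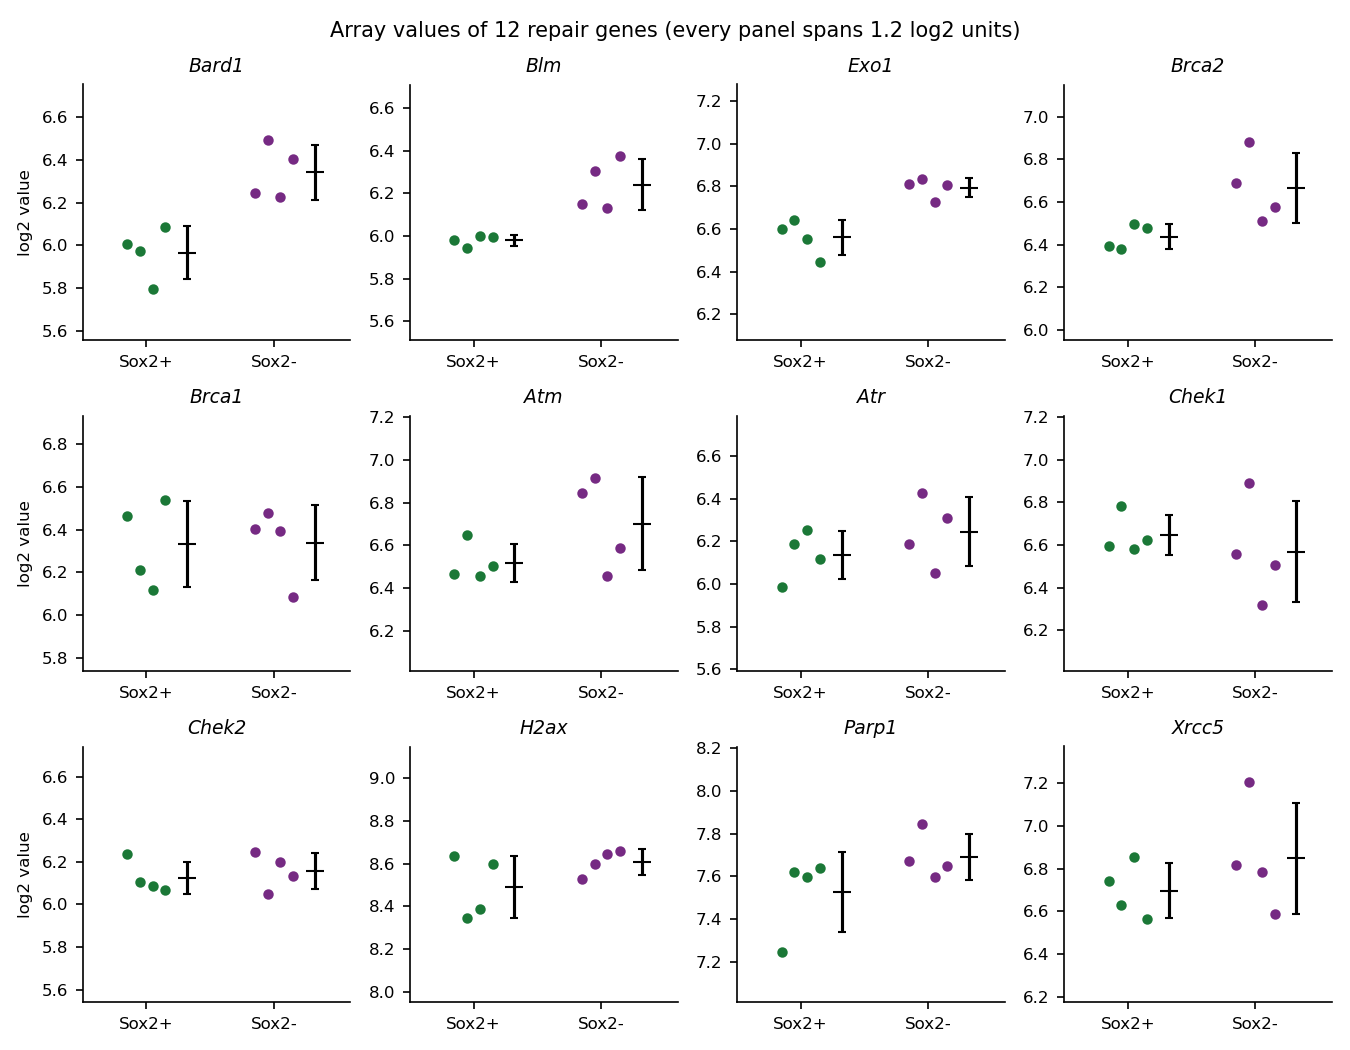
Log2 values of 12 repair genes on each array, Sox2-positive pools in green and Sox2-negative pools in purple, in order of pool number, with the mean and SD of the 4 pools in black. Bard1, Blm, Exo1 and Brca2 in the top row do not overlap between the fractions, while Brca1, Atm, Atr, Chek1, Chek2, H2ax, Parp1 and Xrcc5 do.

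The genes that sense and signal breaks had no call among 9, with 7 below 0 and a median log2 difference of -0.03, the same as over all genes. Atm, the kinase that starts the response, was at 6.46, 6.65, 6.45 and 6.50 in Sox2-positive and 6.85, 6.92, 6.45 and 6.59 in Sox2-negative pools. Sox2-negative pools 1 and 2 were high, and pools 3 and 4 lay among the Sox2-positive ones. The log2 difference was -0.18 (95% interval -0.42 to 0.05, limma adjusted p = 0.393). Mre11a, the nuclease of the sensor complex, split the same way, with Sox2-negative pools 1 and 2 at 7.48 and 7.64 and every other array between 7.08 and 7.22. Its partners had log2 differences of -0.02 for Rad50 and 0.16 for Nbn, the latter the largest positive difference of the 40 genes (limma adjusted p = 0.366).

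H2ax encodes the histone that Atm marks around a break. It was at 8.63, 8.34, 8.39 and 8.60 in Sox2-positive and 8.53, 8.60, 8.64 and 8.66 in Sox2-negative pools. Sox2-positive pools 2 and 3 lay below all others, and pools 1 and 4 lay among the Sox2-negative ones (log2 difference -0.12, 95% interval -0.32 to 0.09). The array reads the RNA and not the phosphorylated protein.

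Trp53bp1, which protects ends from trimming and steers them to end joining, was at 7.36, 7.44, 7.27 and 7.54 against 7.45, 7.39, 7.54 and 7.25, a log2 difference of -0.0044 (95% interval -0.21 to 0.20). Of the ubiquitin ligases that recruit it, Rnf8 had a log2 difference of -0.08 and Rnf168 of 0.07. Chek2, the kinase that passes the Atm signal on, was at 6.24, 6.10, 6.09 and 6.07 against 6.24, 6.05, 6.20 and 6.14. All 8 values of Chek2 lay between 6.05 and 6.24, and its log2 difference was -0.03 (95% interval -0.22 to 0.15).

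The replication stress kinases Atr and Chek1 did not pass either. Atr was at 5.99, 6.19, 6.25 and 6.12 in Sox2-positive and 6.19, 6.43, 6.05 and 6.31 in Sox2-negative pools (log2 difference -0.11, limma adjusted p = 0.615), and its other, dimmer probe set gave -0.17. Chek1, the target of Atr, was at 6.59, 6.79, 6.58 and 6.63 against 6.56, 6.89, 6.32 and 6.50. Sox2-negative pool 2 was the highest and Sox2-negative pool 3 the lowest of its 8 values, so the Sox2-negative fraction spanned the other (log2 difference 0.08, 95% interval -0.17 to 0.33). The median of the pair, -0.02, ran from -0.09 to 0.07 with each array omitted in turn.

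End joining seals breaks without a template. Of its 6 measured genes 0 passed, 5 lay below 0, and the median log2 difference was -0.09. Prkdc, the kinase that holds broken ends, was at 6.21, 6.19, 6.21 and 6.03 in Sox2-positive and 6.41, 6.44, 6.19 and 6.38 in Sox2-negative pools. Sox2-negative pool 3 lay among the Sox2-positive pools and the other 3 above them (log2 difference -0.19, 95% interval -0.39 to 0.0029). The ring that loads it is made of Xrcc5 and Xrcc6. Xrcc5 was at 6.74, 6.63, 6.85 and 6.57 against 6.82, 7.21, 6.78 and 6.59, and Xrcc6 at 6.46, 6.48, 6.61 and 6.56 against 6.76, 6.67, 6.50 and 6.57. Xrcc5 had the largest spread within fractions of the 40 genes (SD 0.20, pooled over both fractions), and Sox2-negative pool 2 was its highest array. Their log2 differences were -0.15 and -0.10. The ligase gene Lig4 had a log2 difference of -0.06, its partner Xrcc4 had 0.10 and the bridging factor Nhej1 had -0.08.

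Single-strand breaks are found by Parp1 and Parp2 and closed by Lig3 with the scaffold Xrcc1. All 4 genes had log2 differences below 0 and 0 passed. Parp1 was at 7.25, 7.62, 7.59 and 7.64 in Sox2-positive and 7.67, 7.85, 7.60 and 7.65 in Sox2-negative pools. Sox2-positive pool 1 was far below the other 7 values. The log2 difference was -0.17 with it and -0.07 without it. Parp2 had a log2 difference of -0.18 (95% interval -0.37 to 0.02), Xrcc1 of -0.10 and Lig3 of -0.06.

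The mismatch repair genes correct copying errors. Msh3, which finds larger loops, had the second largest difference of the 40 genes. It was at 5.43, 5.59, 5.69 and 5.38 in Sox2-positive and 6.06, 5.88, 5.62 and 5.59 in Sox2-negative pools. Sox2-positive pool 3 lay above Sox2-negative pools 3 and 4 (log2 difference -0.27, 95% interval -0.52 to -0.02, limma adjusted p = 0.214). Msh6, which finds single mismatches, was at 5.08, 4.90, 4.93 and 5.05 against 5.13, 5.12, 4.96 and 5.16 (log2 difference -0.10). Pms2, the endonuclease partner, had -0.04. Both group means of each of these 3 genes lay below 5.80, a guide to dim signal taken from receptor genes.

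The Fanconi anaemia proteins unhook cross-linked strands. Of 5 measured genes, 3 lay below 0 and 0 passed. Fancm, the helicase that recognises the blocked fork, was at 6.66, 6.82, 6.74 and 6.55 in Sox2-positive and 6.96, 7.05, 6.74 and 6.95 in Sox2-negative pools. Sox2-positive pool 2 lay above Sox2-negative pool 3 (log2 difference -0.23, 95% interval -0.44 to -0.02, limma adjusted p = 0.187). Fancd2, a subunit of the clamp that is ubiquitinated on damage, was at 7.28, 6.88, 7.27 and 7.14 against 7.41, 7.47, 7.26 and 7.21, with Sox2-positive pool 2 the lowest. The log2 differences were -0.19 for Fancd2 and -0.15 for its partner Fanci. The ligase gene Fancl, which modifies them, had 0.13, and the core complex gene Fancc had 0.04.

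The members' median deviation from each gene's own mean over the 8 arrays was -0.07 to -0.03 in the Sox2-positive pools and 0.01 to 0.15 in the Sox2-negative pools. Over all genes tested the fractions were apart in the same direction, at -0.025 to -0.00098 against 0.00065 to 0.017. The direction is therefore not particular to these genes. On each array the members' value lay further from 0 than that of all genes, which was not tested. The members' highest value was that of Sox2-negative pool 2, which held the maximum of 17 of the 40 genes (42.5%), against 20.0% of all genes tested. The 28 DNA replication genes had their maximum on the same array in 16 cases and a median deviation of 0.22 there. Without Sox2-negative pool 2 the members' median log2 difference was -0.09, 31 of 40 lay below 0, and 0 passed the test. The median of the replication genes moved from -0.10 to -0.03 without it. The part of this array in the members' values beyond that was not tested.

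**Figure D3:**
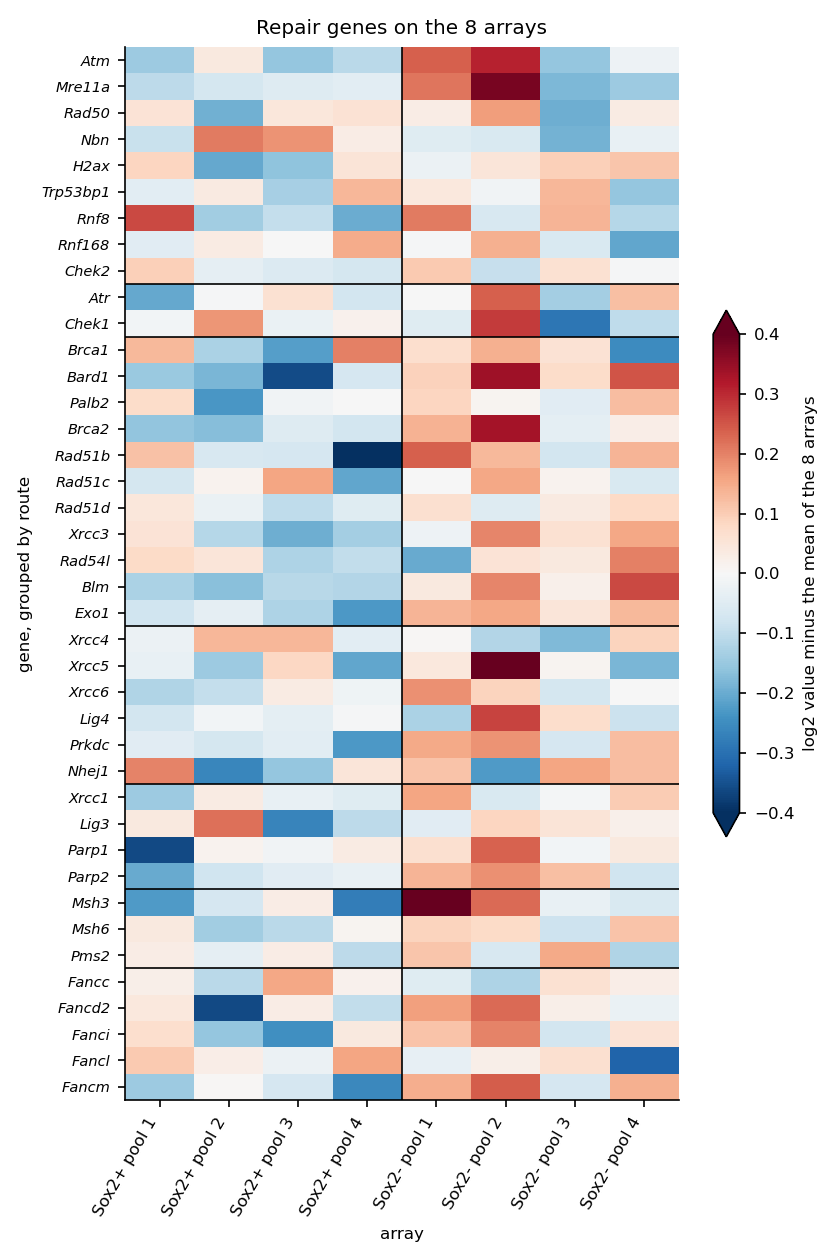
Each cell is the log2 value of 1 repair gene on 1 array minus that gene's mean over the 8 arrays, with the routes separated by lines in the same order as the plot of differences. The column of Sox2-negative pool 2 is the reddest, with the maximum of 17 of 40 genes, and Bard1, Blm, Exo1 and Brca2 are blue in all 4 Sox2-positive columns.

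The dividing cells of the fractions were looked at through both cell cycle lists, since repair genes vary with the cycle. Over all genes tested 5.96% were higher, 2.52% lower and 58.7% below 0. Of 28 DNA replication genes, 0 passed, 22 lay below 0 and the median log2 difference was -0.10, the same as for the repair members. With quantile normalization 3 of the 28 passed as lower, where 847 of all 22180 genes did. With the dimmer genes left out, 1 of the 24 replication genes that remained passed as lower. Of 24 mitosis genes, 1 was higher (Ube2c, 1.26-fold, limma adjusted p = 0.0483) and 0 were lower. Of the 24, 5 lay below 0, and the median was 0.13. Sox2-positive pool 4 held the maximum of 18 of these 24 genes (75%), against 8.13% of all genes tested. Without that pool the mitosis median was 0.07 and 6 lay below 0. The call of Ube2c ended in 9 of 15 alternatives, among them the omission of any array but Sox2-positive pool 2. The part of the cell cycle in the members' differences was not tested.

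A wider list of 110 other repair genes was measured, of 123 listed. Of these 2 were higher and 2 lower, 72 lay below 0 (65.5%) and the median log2 difference was -0.06. Over all genes tested 5.96% were higher, 2.52% lower and 58.7% below 0, so the calls are no more than the background gives. Rev3l, the catalytic subunit of the polymerase that copies past lesions, was higher in Sox2-positive cells by 1.92-fold. Its values were 7.99, 8.91, 8.51 and 8.27 in Sox2-positive and 7.55, 7.48, 7.44 and 7.45 in Sox2-negative pools. The Sox2-negative pools were close together and all lay below the Sox2-positive ones, which spread widely (log2 difference 0.94, SE 0.15, limma adjusted p = 0.00125). The call held in all 15 alternatives.

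Hus1, a subunit of the clamp that is loaded at damaged sites to activate Atr, was 1.36-fold higher. It was at 7.33, 7.56, 7.41 and 7.31 in Sox2-positive and 6.91, 7.18, 6.81 and 6.93 in Sox2-negative pools, without overlap (limma adjusted p = 0.0134). The call ended without Sox2-positive pool 2 (limma adjusted p = 0.0523). Rad9a, another subunit of that clamp, had a log2 difference of the opposite sign, -0.26 (limma adjusted p = 0.0683), and did not pass. Its fractions did not overlap, and it passed in 2 of 15 alternatives (lowest limma adjusted p = 0.026). The clamp subunit gene Rad1 had -0.09.

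Cdc25a, the phosphatase that Chek1 marks for breakdown to halt the cycle, fell by 0.41 on the log2 scale. Its values were 6.88, 6.89, 6.75 and 6.83 against 7.28, 7.36, 7.03 and 7.31, without overlap (limma adjusted p = 0.0149, and 0.0505 without Sox2-positive pool 3). Fancf, an adaptor of the Fanconi core complex, fell by 0.42. It was at 7.94, 7.88, 8.22 and 8.01 against 8.41, 8.74, 8.41 and 8.18, and Sox2-positive pool 3 overlapped the other fraction. Its call was the weakest of the 4 (limma adjusted p = 0.0463) and was kept in 8 of 15 alternatives. It ended with a variance trend (limma adjusted p = 0.0536). It also ended with the omission of Sox2-positive pool 1, 2 or 4, or of pool 1, 2 or 3 of the other fraction (limma adjusted p from 0.0754 to 0.141).

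The other lists held no gene that passed. Of 27 further genes of recombination and end processing, the largest difference was that of Top3a, a partner of Blm (-0.30, limma adjusted p = 0.0865). Brip1, the helicase that binds Brca1, had -0.26 (limma adjusted p = 0.0918). Both had every Sox2-positive pool below every Sox2-negative pool. In this list 3 genes were apart in that direction and 0 in the other, and 17 lay below 0 and 10 above. Among all 110 other repair genes the fractions were apart in 6 lower and 3 higher genes. Over all genes tested 6.07% were apart and lower, and 7.63% apart and higher. The largest difference in the list of base excision was that of Parp3 (0.32, limma adjusted p = 0.0524), which passed with quantile normalization, a variance trend or without Sox2-negative pool 4 (limma adjusted p from 0.025 to 0.0495). In nucleotide excision it was Gtf2h1 (0.33, limma adjusted p = 0.13), which passed with the pool number as a block (limma adjusted p = 0.0336). In end joining it was Aplf (-0.15), and of the 2 further mismatch repair genes it was Mlh3 (0.06).

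**Figure D4:**
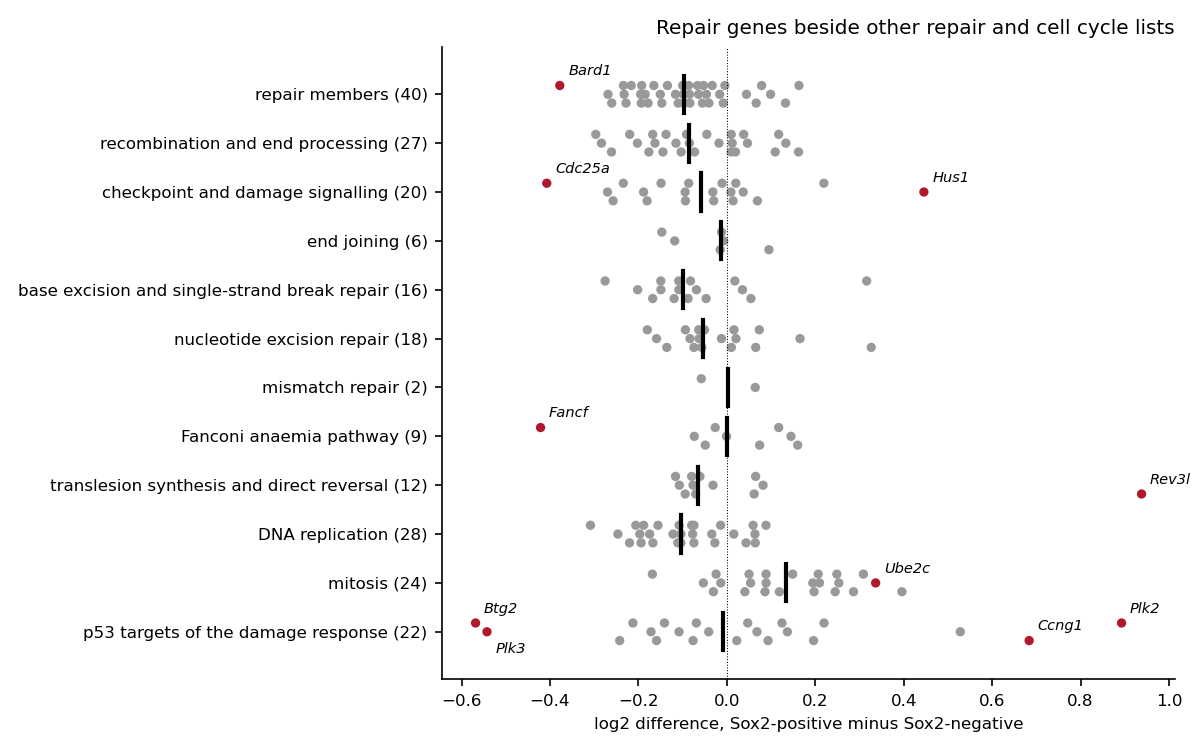
Log2 differences, Sox2-positive minus Sox2-negative, of every gene in the repair members and in the lists beside them, with the number of genes in brackets, the list median as a black bar and genes past the test in red. The repair members and the DNA replication genes both have medians of -0.10, the mitosis genes one of 0.13, and Rev3l at 0.94 lies farthest right.

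Against these small differences, the fractions were far apart in lineage. Sox2 itself was at 5.67, 6.07, 6.36 and 5.68 in Sox2-positive and 4.05, 4.60, 4.49 and 4.04 in Sox2-negative pools, without overlap. The cells were sorted on the reporter of this gene, so its separation is no evidence on lineage. Its Sox2-negative values and the lowest Sox2-positive ones lay below 5.80, the guide to dim signal. All 7 oligodendrocyte progenitor markers were higher (median log2 difference 2.95), as were 6 of 7 of astrocytes (1.24), and all 8 of granule neuron progenitors were lower (-0.75). The mean level of the granule neuron progenitor markers was 7.39 to 7.66 in the Sox2-positive and 8.20 to 8.52 in the Sox2-negative pools, in the same direction as the members. Of 10 microglia and macrophage markers 0 passed, with mean levels of 5.48 to 5.58 against 5.48 to 5.71, and 2 had an unadjusted p under 0.05. The only red blood cell marker measured, Slc4a1, did not pass. Of 7 markers of endothelial cells and pericytes, Rgs5 was higher, and so was Cspg4, which oligodendrocyte progenitors also use. The part of this difference in cell type in the members' values was not tested.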

How the data were processed

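Affymetrix arrays measured total RNA of 8 pools of sorted cells. The authors deposited log2 values per probe set, for which the submitters' processing notes name RMA and Affymetrix Expression Console 1.2.0.20. RMA corrects background, equalises array distributions and compresses differences of dim genes. That the scale is log2 follows from their range. The array's genome build is not given in the sources used here.

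The table held 41345 probe sets, 23521 of them with 1 gene symbol in the platform annotation. For genes with several, the probe set with the highest mean over 8 arrays was used. H2afx was matched to H2ax through a RefSeq gene table (GRCm38.p6). limma 3.58.1 in R 4.3.3 (lmFit, eBayes, group as the only term, two-sided) was fitted to all 22180 genes, with Benjamini-Hochberg adjustment and a threshold of 0.05. No depth applies to arrays, and the number of pools limits the precision. The procedure was tested on simulated data. The table gives no detection call. For 8 of the 40 genes both group means lay below 5.80, the upper quartile of 1390 olfactory and vomeronasal receptor genes, a guide to dim signal: Rad51d, Xrcc4, Msh3, Msh6, Pms2, Fancc, Fanci and Fancl.

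The members and lists were chosen with earlier results of these data known. Array values are printed for members past the test, the 10 with the largest difference and a set of central genes. Of the other lists, genes past the test and the largest difference per list are named. Brip1, Rad9a, Rad1, Mre11a's array values and Cdkn1a were named after their values were seen.

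Deviations of equally numbered pools from their group means correlated at 0.164, 0.114, 0.177 and 0.241 over all genes. Of the 12 unequally numbered pairs, 2 lay above the lowest of these, at 0.161 and 0.137, and the others between -0.284 and 0.0079. Because these ranges overlap and the labels are silent, the correlations do not settle whether equally numbered pools are pairs. The p-values and intervals given for the main fit assume no pairing. Blocking by pool number served only as a check among the alternatives. Arrays correlated at 0.973 to 0.987 within fractions.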

Additional observations from a re-analysis of the deposited data

Results flagged for a closer look

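Of 98 groups of 4 values, from 49 named genes, 5 held a value that stood apart by Dixon's test, where chance gives about 1 in 20. Rad50 in Sox2-positive pool 2 was at 5.61, with the nearest of its group at 5.84, and without that pool the log2 difference was 0.04 in place of -0.02. Prkdc in Sox2-positive pool 4 was at 6.03 against 6.19, and Parp1 in Sox2-positive pool 1 was at 7.25 against 7.59. Nhej1 in Sox2-negative pool 2 was at 6.10 against 6.44. Gtf2h1 in Sox2-negative pool 4 was at 5.75 against 6.08. None of these 5 genes passed the test with all arrays or without the value that stood apart.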

How the results depend on the processing

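Of 797 values of 54 genes under 15 alternatives, 747 kept their sign and side of the threshold. With each array left out in turn, 0 to 1 repair genes were lower and 0 higher. The medians ran from -0.12 to -0.08. Over all genes, 309 to 591 were lower (558 with all arrays) and 995 to 1334 higher. The lower count fell most without Sox2-positive pools 2 (309) and 4 (361) and Sox2-negative pool 1 (357). Of the other repair genes, 1 to 3 were higher and 1 to 2 lower. With quantile normalization 2 repair genes (Bard1 and Exo1) and 847 of all genes were lower, and higher genes made up 60.2% of the calls in place of 70.3%. With a variance trend 1 other repair gene was lower. The cause of these shifts was not tested. The replicate block kept 1 repair gene lower, and of the named genes it changed the calls of Gtf2h1 and Cdkn1a and no other. With it 1572 of all genes were higher and 768 lower.

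Genes near 0 changed sign. Rad50 and Brca1 were at 0.013 and 0.018 with array weights, and Rnf168 at -0.0057 with quantile normalization. With single arrays left out the ranges were -0.084 to 0.045 for Rad50, -0.056 to 0.040 for Trp53bp1, -0.0043 to 0.19 for Chek1, -0.093 to 0.064 for Brca1 and -0.11 to 0.0075 for Rad51c. They were -0.12 to 0.014 for Rad54l, -0.12 to 0.016 for Lig4, -0.14 to 0.023 for Lig3 and -0.087 to 0.0035 for Pms2. Leaving out every gene whose mean over the 8 arrays lay below the median gene, a stricter bound than the receptor guide, kept 31 members, with 1 call, Bard1.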

Other observations

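Targets of p53 that respond to damage, 22 measured, moved in both directions, with 2 higher, 2 lower and a median log2 difference of -0.01. Over all genes tested 5.96% were higher and 2.52% lower. Plk2, a kinase of the stress response, was 1.86-fold higher in Sox2-positive cells (limma adjusted p = 0.00373). Ccng1, which feeds back on p53, was 1.61-fold higher (limma adjusted p = 0.00502). Btg2, an antiproliferative gene, fell by 0.57 on the log2 scale (limma adjusted p = 0.0121) and the kinase gene Plk3 fell by 0.54 (limma adjusted p = 0.0268). Omitting Sox2-positive pool 2, or pool 2 or 3 of the other fraction, ended the call of Plk3 (limma adjusted p from 0.0641 to 0.0899). Cdkn1a, the cell cycle inhibitor that p53 induces, was at 8.47, 8.59, 8.78 and 8.81 in Sox2-positive and 7.95, 8.05, 8.67 and 7.88 in Sox2-negative pools (log2 difference 0.53, limma adjusted p = 0.053, not past the test). It passed in 4 of 15 alternatives, among them the pool number as a block (limma adjusted p = 0.0155).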
